A study of Mus musculus with 4 samples.

Results

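The genes that encode the receptors for glutamate and GABA were followed in WT ESCs and in ESCs that lack the serine/threonine kinase PIM3. The group was defined by gene symbol alone: every row of the gene count table for a subunit of an AMPA, kainate, delta or NMDA receptor (Gria, Grik, Grid, Grin), a metabotropic glutamate receptor (Grm), a GABA-A receptor (Gabr) or a GABA-B receptor (Gabbr). This rule found 47 of the 55418 genes in the table, of which 26 encode glutamate receptor subunits and 21 encode GABA receptor subunits. The rule uses no expression value, though the group was taken up with earlier results of these data known. Bulk RNA-seq was performed on 4 cultures of the mouse ESC line E14 (strain given as 12910la), all kept in serum and LIF on gelatin. The WT group had 2 cultures of genotype wild type, and the Pim3-/- group had 2 cultures of knockout lines made with CRISPR/Cas9. By the study's methods the Pim3-/- libraries came from 2 different clones and the WT libraries from 2 biological samples, so differences between the Pim3-/- replicates include differences between clones. With 2 cultures per group, an exact permutation test of a single value cannot go below p = 0.333, and the tests therefore come from edgeR's quasi-likelihood model fitted to all genes.

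Glutamate is the main excitatory transmitter of the brain and GABA the main inhibitory one. Ionotropic glutamate receptors are channels built from subunits of a single class (AMPA, kainate or NMDA), and an NMDA receptor needs the subunit GRIN1 to reach the cell surface. Metabotropic glutamate receptors signal through G proteins. GABA-A receptors are chloride channels most often assembled from alpha and beta subunits with a gamma or delta subunit, whereas the GABA-B receptor pairs GABBR1 with GABBR2 and signals through G proteins. These receptors are known chiefly from neurons, and in ESCs most of their genes are expressed weakly.

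The 4 libraries held between 22029427 and 25668307 counts, and a gene counted 3 times in a library stood at 0.112 to 0.156 CPM (counts per 1000000 counts of the library, scaled with TMM factors). Pim3 itself had 4392 and 4953 counts in WT ESCs and 4970 and 4804 in Pim3-/- ESCs (log2 fold change -0.27, SE 0.17, adjusted p = 0.251). The count of the whole gene therefore did not separate the genotypes, and reads at the edited sites were not analysed here. The paper places its guides in exons of Pim3. It reports deleted Pim3 fragments by qPCR and a complete loss of PIM3 protein by western blot in the knockout lines. After the filter on low counts 18444 genes were tested, of which 17.6% were upregulated and 16.2% downregulated in Pim3-/- ESCs at an adjusted p under 0.05. At a change of 3-fold or more, 8.47% were upregulated and 1.38% downregulated. The TMM factors were 0.828 and 0.883 for WT ESCs and 1.17 in both Pim3-/- libraries, and with library totals alone in place of these factors the median over all tested genes lay 0.449 higher on the log2 scale, so fold changes are given relative to the TMM scale.

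Glutamate and GABA receptor RNA was sparse in these ESCs. No count was found in any library for 7 genes, among them Gabra6, Gria2, Grik1, Grik2, Grm5 and Grm7. A further 10 genes had at most 3 counts in every library, among them Gabra2, Gabrb1, Gabrb2, Gabrg1, Gabrg3, Gabrr3, Gria1, Grm6 and Grm8. Another 15 had more than 3 counts in some library, up to 24, but did not pass the filter, which left 15 genes for the test. A count of 0 leaves room for up to 3 counts in a library. More receptor genes were detected with at least 1 count in the Pim3-/- libraries, 36 in each, than in the WT libraries, with 28 and 25. The same count over all genes was not made. In addition, 3 counts stood at a lower level in the Pim3-/- libraries (0.112 and 0.116 CPM) than in the WT ones (0.156 and 0.132 CPM). The difference in detection was therefore not read as a trait of the receptor genes. The summed receptor level was 104 and 109 CPM in WT ESCs and 137 and 189 CPM in Pim3-/- ESCs, so that the groups did not overlap. Glutamate receptor genes summed to 44.5 and 44.6 CPM in WT ESCs and to 75.0 and 123 CPM in Pim3-/- ESCs, whereas GABA receptor genes summed to 59.6 and 64.0 CPM and to 62.0 and 65.7 CPM. Without Grik3, its gene with the most counts, the glutamate sum was 30.1 and 29.9 CPM against 50.3 and 74.1 CPM. The GABA sum was mostly Gabbr1, and without it stood at 10.1 and 13.2 CPM in WT ESCs and at 20.7 and 18.6 CPM in Pim3-/- ESCs, again with no overlap. These are bulk samples, in which more cells of a type and more RNA per cell cannot be told apart.

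In WT ESCs 5 genes, Gabbr1, Grik3, Grik5, Gabrp and Grin1, made up 85.4% of the mean receptor CPM, and the same 5 genes made up 80.8% in Pim3-/- ESCs. Per kilobase of exon, Gabbr1 was the highest in WT ESCs at 6.46 CPM per kb. Gabrp followed at 2.56, Grik5 at 1.92, Grik3 at 1.62, Grin3b at 1.43 and Grin1 at 0.787 CPM per kb. In Pim3-/- ESCs Gabbr1 was again first at 5.69 CPM per kb, and Grik3 came next at 4.11. Grik5 stood at 3.61, Gabrp at 3.10, Grin1 at 2.22 and Grin3b at 1.28 CPM per kb. Every other receptor gene was below 1 CPM per kb in both groups, with Gabre the nearest at 0.836 CPM per kb in Pim3-/- ESCs. The plot of receptor levels by library shows the genes that entered the test.

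**Figure D1:**
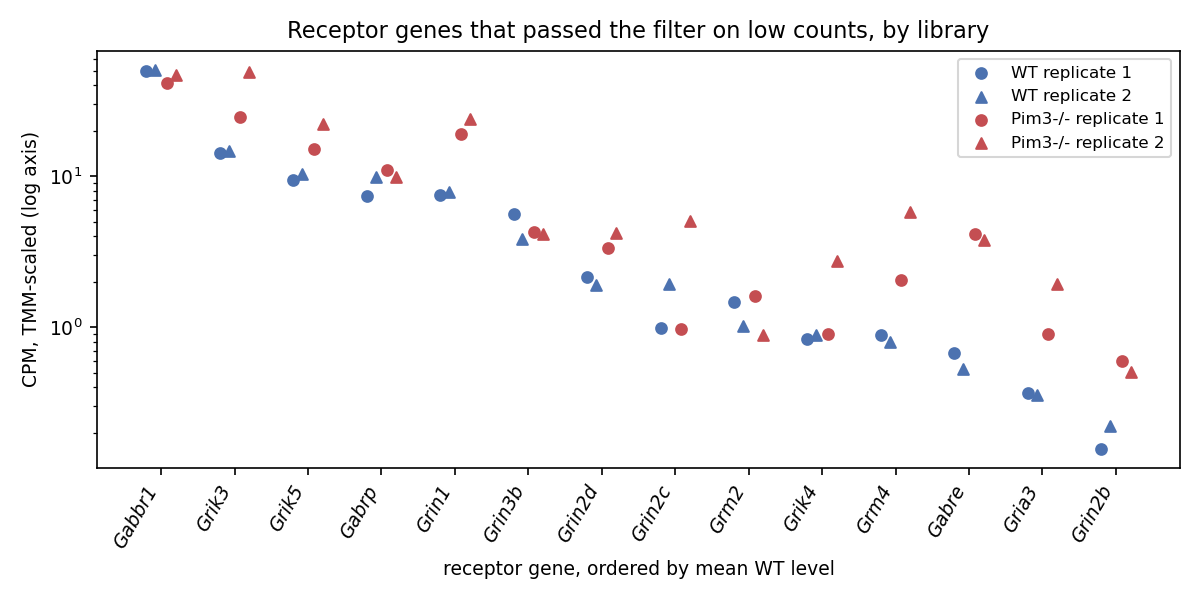
Level of 14 of the 15 tested glutamate and GABA receptor genes in the 2 WT and 2 Pim3-/- libraries, in CPM on a log axis, with each point standing for 1 library. Blue stands for WT and red for Pim3-/-, and circles and triangles for replicates 1 and 2. The WT and Pim3-/- points of Gabbr1 lie close together (means 50.1 and 44.2 CPM), while the Pim3-/- points of Gabre (mean 3.96 CPM) lie far above its WT points (mean 0.604 CPM).

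Of the 15 receptor genes tested, 6 were upregulated in Pim3-/- ESCs (Gabre, Grm4, Gria3, Grin1, Grik3 and Grik5), against 17.6% of all tested genes. None was downregulated at the adjusted threshold, none at an unadjusted p under 0.05 and none by the DESeq2 Wald test, against 16.2% of all tested genes. Upregulation of at least 3-fold was found for 3 of them (Gabre, Grm4 and Gria3), against 8.47% of all tested genes. The median log2 fold change was 1.02 over the 15 genes and 0.07 over all tested genes, and 13 of the 15 fold changes were above 0. Weakly expressed genes rose more often in the whole table, so the shares were also read within levels. Below 0 on the scale of mean log2 CPM, 22.4% of all tested genes were upregulated (median log2 fold change 0.86) and the 1 receptor gene there was not. Among all tested genes with a mean level between 0 and 2 on the log2 CPM scale, 23.5% were upregulated (median log2 fold change 0.53), and 3 of the 8 receptor genes there were. Between 2 and 4 the share was 21.2% of all genes (median 0.20) and 2 of 4 receptor genes, and between 4 and 6 it was 15.3% (median -0.09) and 1 of 2. The levels below 4, which held 13 of the 15 receptor genes, thus had higher medians than the whole table. They also held fewer downregulated genes: 1.64% of all tested genes below 0, 3.67% between 0 and 2 and 9.08% between 2 and 4. Between 4 and 6 it was 22.4%. The lack of downregulated receptor genes was therefore not read as a result. Both Pim3-/- libraries lay above both WT libraries for 9 of the 15 tested receptor genes and below them for 1 (Gabbr1), against 38.3% and 34.2% of all tested genes. Gria3 and Grin2b passed the filter only through the Pim3-/- libraries. The calls depended on which library was left out, because a group of 1 library has no spread of its own. Fewer receptor genes passed without either WT library, and Gabre was the only one to pass in every such fit. More passed without either Pim3-/- library, but those fits leave out the spread between clones. The median log2 fold change of the 15 genes was 0.95 without WT replicate 1 and 1.05 without WT replicate 2. It was 1.36 without Pim3-/- replicate 1 and 0.60 without Pim3-/- replicate 2.

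**Figure D2:**
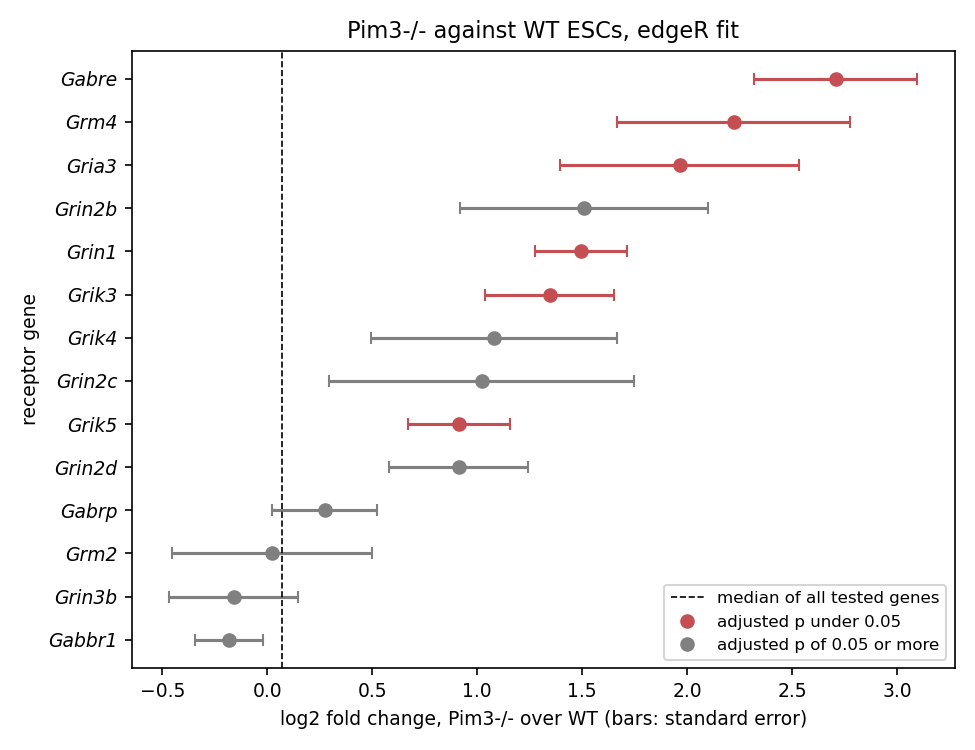
Log2 fold change (Pim3-/- minus WT) of 14 of the 15 tested receptor genes from edgeR's quasi-likelihood test, with bars of 1 SE, red for genes with an adjusted p under 0.05 and grey for the others; the dashed line is the median of all tested genes. The 6 upregulated genes range from 0.91 for Grik5 to 2.71 for Gabre, and Gabbr1 (-0.18) and Grin3b (-0.16) are the genes below 0.

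The bases upstream of 6 tested genes are shown because CG dinucleotides are the sites of DNA methylation in mammals and abound at the promoters of broadly expressed genes. The first 4 belong to upregulated genes, and the last 2 were picked for having the fewest CGs among the tested genes that were not upregulated, so the contrast between the sequences shown is one of choice. Sequences are from RefSeq (GRCm38.p6), read 5′ to 3′ along the gene and ending at or just before the annotated start. Each covers the longest stretch of the 250-base upstream window that holds no annotated exon, and capitals mark every CG.
Grik3 (chr4:125490446-125490695, plus strand): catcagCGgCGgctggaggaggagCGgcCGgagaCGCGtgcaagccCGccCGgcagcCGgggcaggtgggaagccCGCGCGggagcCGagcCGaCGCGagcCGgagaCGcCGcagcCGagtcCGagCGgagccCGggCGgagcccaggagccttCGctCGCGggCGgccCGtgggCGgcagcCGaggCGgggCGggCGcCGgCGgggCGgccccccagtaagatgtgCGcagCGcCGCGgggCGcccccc
Grin1 (chr2:25319188-25319437, minus strand): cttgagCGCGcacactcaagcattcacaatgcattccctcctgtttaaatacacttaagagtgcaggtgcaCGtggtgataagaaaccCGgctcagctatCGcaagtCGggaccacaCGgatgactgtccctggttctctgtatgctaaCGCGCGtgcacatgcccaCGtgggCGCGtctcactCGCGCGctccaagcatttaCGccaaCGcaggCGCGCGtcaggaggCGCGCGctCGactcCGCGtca
Gabre (chrX:72274804-72274971, minus strand): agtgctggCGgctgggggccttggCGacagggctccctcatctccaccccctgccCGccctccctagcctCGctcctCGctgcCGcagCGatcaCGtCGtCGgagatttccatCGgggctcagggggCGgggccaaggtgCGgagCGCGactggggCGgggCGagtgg
Grik5 (chr7:25072370-25072566, minus strand): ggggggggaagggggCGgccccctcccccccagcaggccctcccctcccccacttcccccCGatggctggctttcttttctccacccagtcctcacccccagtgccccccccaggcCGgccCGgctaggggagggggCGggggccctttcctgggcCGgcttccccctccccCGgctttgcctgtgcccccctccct
Gabrp (chr11:33578960-33579207, minus strand): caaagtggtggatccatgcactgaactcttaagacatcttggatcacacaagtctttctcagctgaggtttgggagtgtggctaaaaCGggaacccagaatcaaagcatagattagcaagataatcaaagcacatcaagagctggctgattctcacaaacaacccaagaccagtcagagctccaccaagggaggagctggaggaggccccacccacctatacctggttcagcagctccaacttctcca
Grin3b (chr10:79970474-79970714, plus strand): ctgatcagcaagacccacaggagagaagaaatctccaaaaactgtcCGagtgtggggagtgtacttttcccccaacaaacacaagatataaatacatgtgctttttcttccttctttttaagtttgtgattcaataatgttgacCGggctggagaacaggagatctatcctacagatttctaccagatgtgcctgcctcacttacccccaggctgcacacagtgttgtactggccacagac

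A window was found for 32 of the 47 receptor genes (none for Gria3 and Grm4), and where RefSeq had several starts the window with the most CGs was taken, for all genes alike. The 250-base window of Grik3 held 42 CGs, that of Grin1 27, that of Gabre 21 and that of Grik5 8, whereas those of Grin3b and Gabrp held 2 and 1. The windows of Gabbr1 and Grm2, which like Grin3b had fold changes near or below 0, held 16 each. The median was 24 CGs over these 4 upregulated genes, 15 over the 7 tested genes that were not upregulated and 9 over the 21 untested ones. Among 27025 genes of the RefSeq table the median was 6 CGs, 92.3% held at least 1, and 19.7% held 20 or more, as did 7 of the 32 receptor genes. The ranges of the upregulated genes (8 to 42) and of the tested genes not upregulated (1 to 36) overlapped. These counts describe the letters of the windows, and no methylation was measured.

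Among the NMDA receptor genes, Grin1 encodes the obligatory subunit, Grin2a to Grin2d encode the subunits that bind glutamate, and Grin3a and Grin3b encode subunits that bind glycine. Grin1 (chr2:25291181-25319187, GRCm38) had 143 and 177 counts in WT ESCs and 509 and 619 in Pim3-/- ESCs. Both Pim3-/- libraries were thus well above both WT libraries, at 21.5 ± 3.49 CPM against 7.63 ± 0.247 CPM (SD, n = 2 each), a log2 fold change of 1.49 (SE 0.22, adjusted p = 0.00525). The antisense gene Grin1os overlaps 13.5% of the exonic bases of Grin1 on the other strand. Grin1os moved with it, from 50 and 101 counts to 274 and 344 (log2 fold change 1.73, SE 0.33, adjusted p = 0.00921). The sources used here do not state whether counting used strand, so reads of Grin1 and Grin1os within the overlap may not have been separated.

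The partners of Grin1 did not pass the threshold. Grin2d had 41 and 43 counts in WT ESCs and 90 and 109 in Pim3-/- ESCs (log2 fold change 0.91, SE 0.33, adjusted p = 0.0685). Grin2b had 3 and 5 counts against 16 and 13 (log2 fold change 1.51, SE 0.59, adjusted p = 0.0836). In both genes the groups did not overlap. Grin2c had 19 and 44 counts in WT ESCs but 26 and 130 in Pim3-/- ESCs, so that its groups overlapped and its higher mean came from Pim3-/- replicate 2 (log2 fold change 1.02, SE 0.72, adjusted p = 0.301; -0.62 without that library). Grin3b stood at 4.71 ± 1.23 CPM in WT ESCs and 4.21 ± 0.085 CPM in Pim3-/- ESCs (log2 fold change -0.16, SE 0.31, adjusted p = 0.711). Its exons overlap those of Tmem259 on the other strand over 32.1% of their length, and Tmem259 had 1656 to 2559 counts per library, far above the 87 to 114 of Grin3b. Grin3a was not tested, because it had no count in either WT library. Its 8 and 16 counts in the Pim3-/- libraries gave a mean level 3.18-fold above that of 3 counts per WT library. The 2 Pim3-/- libraries taken alone gave 2.07-fold and 4.29-fold. Only the WT side is bounded in this ratio, and the error of the Pim3-/- counts is left out. Grin2a, also untested, had 2 and 0 counts in WT ESCs against 3 and 13.

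Kainate receptors combine low-affinity subunits (Grik1 to Grik3) with high-affinity ones (Grik4 and Grik5). Grik3 (chr4:125490700-125714173) had the most counts of the glutamate receptor genes, with 275 and 333 counts in WT ESCs and 660 and 1266 in Pim3-/- ESCs. The groups did not overlap, but the Pim3-/- libraries stood 1.99-fold apart, at 36.9 ± 17.2 CPM against 14.5 ± 0.244 CPM in WT ESCs (SD, n = 2 each; log2 fold change 1.34, SE 0.31, adjusted p = 0.0161). Without Pim3-/- replicate 2 its log2 fold change was 0.75. Grik5 (chr7:25009849-25072346) had 180 and 236 counts against 407 and 570, a log2 fold change of 0.91 (SE 0.24, adjusted p = 0.0260; 0.60 without Pim3-/- replicate 2). Hence 1 gene for a low-affinity subunit and 1 for a high-affinity subunit were upregulated, while Grik1 and Grik2 had no count. Grik4 had 16 and 20 counts in WT ESCs and 24 and 71 in Pim3-/- ESCs (log2 fold change 1.08, SE 0.59, adjusted p = 0.185).

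AMPA receptors carry most fast excitatory transmission and are built from the products of Gria1 to Gria4. Of these genes, Gria3 (chrX:41400854-41678601) alone was tested, with 7 and 8 counts in WT ESCs and 24 and 50 in Pim3-/- ESCs. Its groups did not overlap and its log2 fold change was 1.97 (SE 0.57, adjusted p = 0.0337). It was not past the threshold in the DESeq2 Wald test (adjusted p = 0.0674) or without Pim3-/- replicate 2 (log2 fold change 1.30, adjusted p = 0.108). Gria2, whose edited subunit makes AMPA receptors impermeable to calcium, had no count in any library. Gria4 had 8 and 6 counts in WT ESCs and 5 and 7 in Pim3-/- ESCs, and Gria1 had 1 to 3 counts per library. The delta receptor genes, whose products act as synaptic organisers, were not tested; Grid1 had 3 and 8 counts in WT ESCs and 7 and 24 in Pim3-/- ESCs.

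Metabotropic glutamate receptors fall into group I (such as Grm5), which raises calcium, and groups II (Grm2, Grm3) and III (Grm4, Grm6 to Grm8), which lower cyclic AMP. Grm5 had no count in any library. In group II, Grm2 had 28 and 23 counts in WT ESCs and 43 and 23 in Pim3-/- ESCs, which gave overlapping groups and a log2 fold change of 0.02 (SE 0.48, adjusted p = 0.975). In group III, Grm4 (chr17:27422387-27521403) rose from 17 and 18 counts to 55 and 150. Both Pim3-/- libraries were above both WT libraries, the upper one 2.82-fold above the lower in CPM, and the log2 fold change was 2.22 (SE 0.55, adjusted p = 0.0208; 1.27 without Pim3-/- replicate 2). Grm6 and Grm8 had at most 2 counts in any library and Grm7 had none.

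On the GABA side 4 of the 21 genes were tested and 1 was upregulated, a count too small to set against the 17.6% of all tested genes. Gabre (chrX:72255999-72274803), which encodes the epsilon subunit of GABA-A receptors, had 13 and 12 counts in WT ESCs and 110 and 98 in Pim3-/- ESCs. The 2 libraries of each group were close to each other and the groups far apart, at 0.604 ± 0.105 CPM and 3.96 ± 0.226 CPM (SD, n = 2 each). Its log2 fold change of 2.71 (SE 0.39, adjusted p = 0.00500) was the largest among the tested receptor genes, and it passed the threshold in all 10 alternatives tried, with log2 fold changes from 2.45 to 3.16. Gabrp, the gene of the pi subunit, which is best known outside the nervous system, had 141 and 225 counts against 295 and 255 (log2 fold change 0.27, SE 0.25, adjusted p = 0.420).

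No alpha, gamma or rho subunit gene passed the filter. Gabra5 had no count in WT ESCs and 18 and 4 in Pim3-/- ESCs. Its mean Pim3-/- level was 2.87-fold above that of 3 counts per WT library, but 1.07-fold from Pim3-/- replicate 2 alone. Gabrr1, a rho gene, had 4 and 9 counts against 17 and 5, and the gamma gene with the most counts, Gabrg1, had 3 counts in Pim3-/- replicate 1 and none elsewhere. Per kilobase of exon, Gabre stood at 0.127 CPM per kb in WT ESCs and at 0.836 CPM per kb in Pim3-/- ESCs, where Gabra5 stood at 0.139 CPM per kb. Gabbr1 and Gabbr2 encode the partners of the GABA-B receptor and were far apart in level per kilobase. Gabbr1 had 949 and 1151 counts in WT ESCs and 1103 and 1215 in Pim3-/- ESCs. After scaling, this was 50.1 ± 0.901 CPM against 44.2 ± 4.10 CPM (log2 fold change -0.18, SE 0.16, adjusted p = 0.407), and its sign turned to 0.27 when libraries were scaled by their totals alone. Gabbr2 had 1 and 0 counts in WT ESCs and 12 and 4 in Pim3-/- ESCs, or 0.0039 and 0.045 CPM per kb, so that it was not detectable above the floor of 3 counts in WT ESCs.

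Several GABA-A receptor genes lie side by side in the genome, and 16 receptor genes fell into 5 clusters with less than 1 Mb between neighbours. Gabre shares its cluster on chromosome X (chrX:72255999-72842602) with Gabra3 and Gabrq. Gabra3 had 1 and 1 counts in WT ESCs and 0 and 6 in Pim3-/- ESCs, and Gabrq had 0 and 1 against 4 and 0, so neither neighbour was near the 98 to 110 counts of Gabre. In the clusters on chromosomes 4, 5 and 11 no gene was tested, and the genes on chromosome 5 had at most 5 counts in any library.

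The Pim3-/- libraries, each from a different clone, differed from each other in several glutamate receptor genes. Of the 11 tested glutamate receptor genes, 8 were higher in Pim3-/- replicate 2 than in replicate 1, with a median log2 ratio of 0.53 between them. The 4 tested GABA receptor genes split evenly, 2 each way, with a median of 0.04, and 8697 of 18444 tested genes were higher in replicate 2, with a median of -0.04. The glutamate and GABA medians were not tested against each other. The ratio of replicate 2 to replicate 1 in CPM was 5.18 for Grin2c, 3.06 for Grik4, 2.82 for Grm4, 2.16 for Gria3 and 1.99 for Grik3. It was 1.45 for Grik5, 1.26 for Grin1 and 0.922 for Gabre. In the opposite direction, Grm2 was 1.81-fold higher in replicate 1, and the untested gene Gabrr1 was 3.28-fold higher there. With 1 library of each replicate these ratios have no test.

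**Figure D3:**
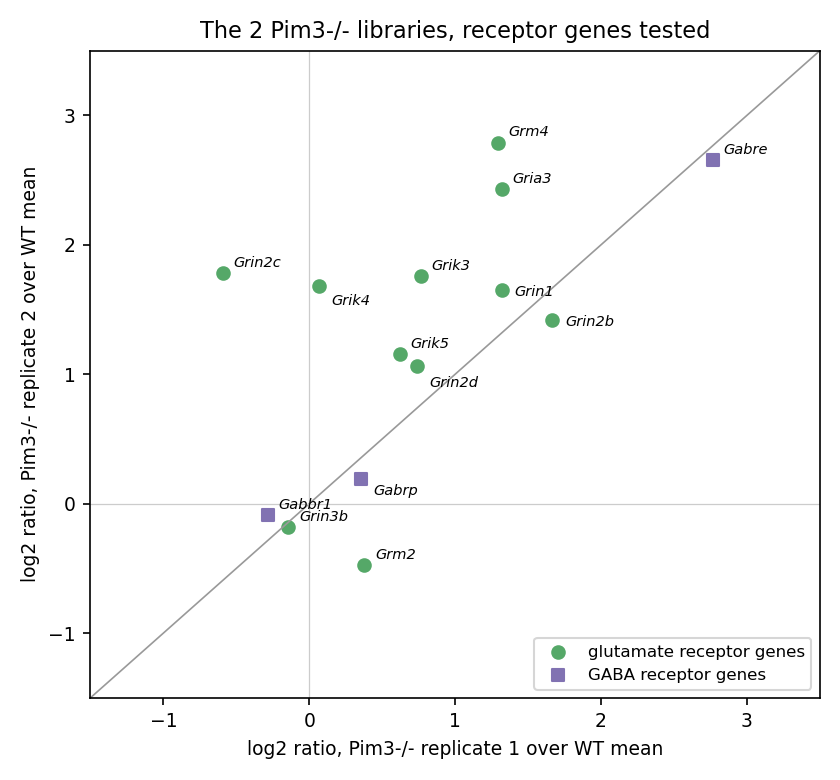
Log2 ratio to the WT mean in CPM for 14 of the 15 tested receptor genes, in Pim3-/- replicate 1 (horizontal axis) and Pim3-/- replicate 2 (vertical axis), with circles for glutamate and squares for GABA receptor genes; genes equal in both libraries would lie on the diagonal. Of the glutamate receptor genes 8 of 11 lie above the diagonal, Grin2c farthest (ratio 5.18), as does Gabbr1, while Gabre (0.922) and Gabrp lie below it.

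Genes that make, package, take up or hold in place the transmitters and their receptors were examined in 6 lists with 73 genes. None was a receptor gene of the group above. Of these, 49 were tested, 19 were upregulated and 2 downregulated, against 17.6% and 16.2% of all tested genes. These shares are not matched for level. Many of the genes lay between 0 and 2 on the log2 CPM scale, where 23.5% of all tested genes were upregulated and 3.67% downregulated. Of these 49 genes, 7 passed the filter only through the Pim3-/- libraries (Slc32a1, Cacng5, Cbln3, Elfn2, Shank2, Grip2 and Grid2ip), and 6 of the 7, all but Elfn2, were among the 19. With at least 10 counts required in every library 41 were tested and 13 were upregulated, against 16.9% of all tested genes. Scaled by library totals, 31 were upregulated (35.8% of all tested genes) and none was downregulated (5.93%), so the split leans on the scaling. Without WT replicate 1 or WT replicate 2, 6 and 3 genes were upregulated, against 2.03% and 2.95% of all tested genes, and none was downregulated. Without Pim3-/- replicate 1 or 2, 25 and 24 were upregulated, against 28.3% and 25.5%, and 5 and 4 were downregulated. In the list of glutamate release, uptake and metabolism, 3 of 8 tested genes were upregulated and 1 downregulated (median log2 fold change 0.17). Slc17a7, the vesicular glutamate transporter VGLUT1, had 69 and 82 counts in WT ESCs and 464 and 381 in Pim3-/- ESCs (log2 fold change 2.15, SE 0.24, adjusted p = 0.00338). Slc1a6, a glutamate uptake transporter, had 11 and 16 counts against 60 and 128 (log2 fold change 2.48, SE 0.51, adjusted p = 0.0116). In these 2 genes both Pim3-/- libraries lay above both WT libraries, whereas the uptake transporter genes Slc1a1 (log2 fold change 0.33) and Slc1a3 (-0.47) did not pass the threshold. Glul, glutamine synthetase, was the gene that fell, from 3383 and 4454 counts to 3436 and 2731, or 186 ± 14.2 CPM to 117 ± 16.1 CPM (log2 fold change -0.67, SE 0.18, adjusted p = 0.0283). Its mean lay above 6 on the log2 CPM scale, where 42.2% of all tested genes fell and the median log2 fold change was -0.48.

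For GABA synthesis, packaging, uptake and breakdown, 3 of 7 tested genes were upregulated and none was downregulated (median 0.89), against 17.6% and 16.2% of all tested genes. None of the 7 was lower in edgeR's test at an unadjusted p under 0.05 or in the DESeq2 Wald test either. Of the 7, 5 lay between 0 and 2 on the log2 CPM scale, where 23.5% of all tested genes were upregulated and 3.67% downregulated. Slc32a1 passed the filter only through the Pim3-/- libraries. Gad1, which makes GABA from glutamate, had 22 and 34 counts in WT ESCs and 131 and 123 in Pim3-/- ESCs (log2 fold change 1.86, SE 0.34, adjusted p = 0.00828). Slc32a1, the vesicular GABA transporter, had 8 and 11 counts against 50 and 51 (log2 fold change 2.07, SE 0.44, adjusted p = 0.0130). Aldh5a1, of GABA breakdown, was the other upregulated gene, while Gad2 had at most 3 counts in any library.

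Auxiliary subunits and ligands of glutamate receptors included 10 tested genes, 5 upregulated and 1 downregulated (median 1.68), against 17.6% and 16.2% of all tested genes. Of these 10 genes, 5 lay between 0 and 2 on the log2 CPM scale. There 23.5% of all tested genes were upregulated, with a median log2 fold change of 0.53. Cacng5, Cbln3 and Elfn2 passed the filter only through the Pim3-/- libraries. Cacng5, an AMPA receptor auxiliary subunit, had 4 and 0 counts in WT ESCs and 33 and 62 in Pim3-/- ESCs (log2 fold change 4.15, SE 0.91, adjusted p = 0.0140). Cbln3, of the cerebellins that bridge delta receptors to neurexins, had 7 and 6 counts against 82 and 122 (log2 fold change 3.62, SE 0.47, adjusted p = 0.00422). The more abundant Cacng7, of the same family as Cacng5, fell from 1103 and 1148 counts to 891 and 978, or from 54.1 ± 4.87 CPM to 35.6 ± 3.22 CPM (log2 fold change -0.60, SE 0.17, adjusted p = 0.0302). Of 13 tested scaffold genes 6 were upregulated and none was downregulated (median 0.70), against the same shares of all tested genes. Of the 13, 1 was lower at an unadjusted p under 0.05 in edgeR's test and 1 in the DESeq2 Wald test. Between 0 and 2 on the log2 CPM scale lay 5 of them, and Shank2, Grip2 and Grid2ip passed the filter only through the Pim3-/- libraries. The upregulated scaffold genes included Grip2, a PDZ protein that binds AMPA receptors, with 8 and 4 counts against 48 and 91 (log2 fold change 3.17, SE 0.60, adjusted p = 0.00921). Grid2ip, a protein of cerebellar synapses, had 10 and 4 against 41 and 77 (log2 fold change 2.71, SE 0.63, adjusted p = 0.0163).

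Among the proteins that anchor GABA receptors and the chloride transporters, 1 of 10 tested genes was upregulated and none was downregulated (median 0.26). The shares of all tested genes were 17.6% and 16.2%. None of the 10 was lower at an unadjusted p under 0.05 in edgeR's test or in the DESeq2 Wald test. The upregulated gene was Nlgn2, the adhesion protein of inhibitory synapses, with 157 and 218 counts in WT ESCs and 504 and 484 in Pim3-/- ESCs (log2 fold change 1.08, SE 0.21, adjusted p = 0.00971). Of the glycine receptor genes only Glrb, the beta subunit, was tested, and it rose from 19 and 24 counts to 79 and 92 (log2 fold change 1.66, SE 0.37, adjusted p = 0.0145).

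**Figure D4:**
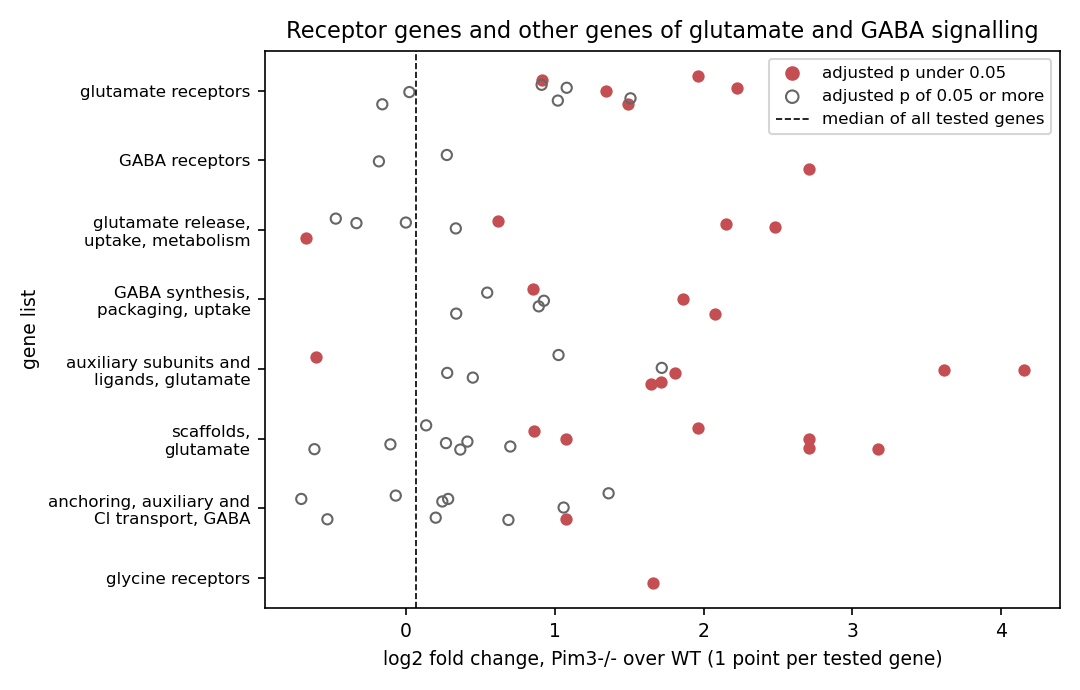
Log2 fold change (Pim3-/- minus WT) of 14 of the 15 tested receptor genes and each tested gene of the 6 pathway lists, 1 point per gene, spread vertically within a list for legibility; filled points have an adjusted p under 0.05, and the dashed line is the median of all tested genes. The auxiliary subunits reach highest (Cacng5, 4.15), and Glul (-0.67) and Cacng7 (-0.60) are the filled points below 0.

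Markers of the cell types such cultures could hold were read beside these results. Over all tested genes 17.6% rose and 16.2% fell. Of 8 pluripotency markers 4 fell in Pim3-/- ESCs (Pou5f1, Nanog, Utf1 and Dppa5a) and none rose. All 8 had a mean above 6 on the log2 CPM scale, where 42.2% of all tested genes fell, so this share was near the background. Their sum was 10610 and 9524 CPM in WT ESCs and 6666 and 6241 CPM in Pim3-/- ESCs. In edgeR's test the log2 fold change was -0.90 for Nanog (adjusted p = 0.0155) and -1.12 for Pou5f1 (adjusted p = 0.00993). The paper instead reports that Nanog rose in Pim3-/- ESCs, from qPCR and a western blot of NANOG, and by qPCR that Oct4 (Pou5f1) was not disrupted. Neither of those measures is on the TMM scale used here. On that scale the median log2 fold change of all tested genes with a mean above 6 was -0.48. The neuronal list was mixed: 2 of 8 tested markers fell (Stmn2 and Tubb3) and none rose past the threshold, but its median log2 fold change was 0.54. Its sum, 977 and 859 CPM against 505 and 498 CPM, was carried by Stmn2 and Tubb3. Both of these genes had a mean above 6 on the log2 CPM scale, where 42.2% of all tested genes fell. Rbfox3 (log2 fold change 1.65, adjusted p = 0.0574), Syt1 (1.53, adjusted p = 0.132) and Syp (1.03, adjusted p = 0.127) had the largest positive values. Of the defining neuronal markers, Dcx had no count in any library, Snap25 had 1 to 6 counts per library, and Rbfox3 had 5 and 5 counts in WT ESCs and 16 and 24 in Pim3-/- ESCs. Among neural progenitor markers 1 of 4 tested genes rose, with sums of 11.5 and 9.57 CPM against 12.2 and 18.3 CPM. Of the astrocyte and oligodendrocyte markers 2 of 5 rose (Gfap and Aldh1l1), with sums of 11.7 and 15.5 CPM against 22.9 and 24.4 CPM, and Aqp4 had no count. All 6 tested primitive endoderm markers rose, out of 7 in the list, with sums of 2.97 and 5.12 CPM against 33.7 and 18.7 CPM. Fibroblast markers had sums of 22.7 and 21.6 CPM against 25.4 and 20.5 CPM, and neither of the 2 tested ones passed the threshold. Where a marker list had no call in a direction, the unadjusted edgeR p was under 0.05 for 1 rising neuronal marker and 1 falling neural progenitor marker and for no other, and the DESeq2 Wald test called only the falling neural progenitor marker. The part of the neuronal, glial and primitive endoderm markers in the receptor values was not tested.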

How the data were processed

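RNA-seq was performed by the authors on 2 WT and 2 Pim3-/- cultures of E14 ESCs. The deposited table holds raw read counts per gene. The study's methods name Cutadapt, Hisat2 and mm10 for these data, whereas the submitters' processing notes name Trim Galore, STAR, featureCounts and GRCm38, so which aligner made the counts is not settled. The deposited table of transposable element counts was not used here.

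Genes were filtered with filterByExpr (minimum count 10, minimum total 15), scaled with TMM factors and tested with the quasi-likelihood test of edgeR 4.0.16 in R 4.3.3. P-values were adjusted by Benjamini-Hochberg over all 18444 tested genes, at a threshold of 0.05, and replicate numbers served as names only. The SE was derived from the fold change and its F statistic. Levels are CPM, and lengths are exon unions of GENCODE M21. In simulated counts 73% of 200 changed genes were recovered (44% at a fold of 2 and 88% at a fold of 4) and 3.95% of calls were false. The simulation changed far fewer genes than were called in the data, equally in both directions. It also gave both groups the same spread, with no differences between clones. Its false share therefore does not carry over to these data. Alternatives were DESeq2 1.42.0 (size factors and Wald test), library totals, 2 other filters, a replicate block, and leaving out each library. Named were all upregulated or downregulated receptor genes, the member of each class with the most counts and, per pathway list and direction, up to 2 genes with the largest change past the threshold, provided that each library of the group with the higher level held 10 or more counts; other genes were chosen after their values were seen. Results of some members are not reported here. The members and lists were chosen with earlier results of these data known. Intervals and floors cover counting error only.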

Additional observations from a re-analysis of the deposited data

How the results depend on the processing

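The count of 6 upregulated receptor genes was between 5 and 8 under the 6 alternatives that kept every library (edgeR, or DESeq2 for the Wald test). Like counts do not mean the same there, because the background moved. Without the filter 8 of 40 were upregulated, against 9.1% of all tested genes, and with library totals 8 of 15, against 35.8%. No receptor gene was downregulated in these 6 fits, against 5.93% to 17.7% of all tested genes. Scaling by library totals gave 8, with 6 of them at least 3-fold, a median log2 fold change of 1.46, 31 upregulated and 0 downregulated genes in the pathway lists, and 85.8% instead of 52.1% of all calls in the upward direction. Without the filter 5 receptor genes were at least 3-fold upregulated, among 40 tested. With a replicate block 6 were upregulated and 4 pathway genes were downregulated. The replicate numbers did not pair the libraries (correlation of deviations 0.0196 over all tested genes). Leaving out 1 library at a time gave 1 to 13 upregulated receptor genes, 1 to 10 at least 3-fold, medians of 0.60 to 1.36, and 3 to 25 upregulated and 0 to 5 downregulated pathway genes. The background moved in these fits too. Without WT replicate 1 or 2, 2.03% and 2.95% of all tested genes were upregulated and 1.88% and 5.35% downregulated. Without Pim3-/- replicate 1 or 2, 28.3% and 25.5% were upregulated and 27.5% and 25.3% downregulated. The ranges were therefore not read as a trait of the receptor or pathway genes. The reversals of sign were all in genes not past the threshold. Grin2c was between -0.62 (without Pim3-/- replicate 2) and 1.74 when 1 library was left out. Grin3b was at 0.30 with library totals and between -0.49 and 0.080 when 1 library was left out. Gabbr1 was at 0.27 with library totals. Grm2 was at -0.021 with DESeq2 size factors, -0.0098 without the filter, -0.025 in the DESeq2 Wald test, -0.015 with the block and between -0.48 and 0.37 when 1 library was left out. Adjusted p reached 0.0622 for Grin1, 0.102 for Grik3, 0.258 for Grik5, 0.110 for Grm4 and 0.210 for Gria3 when 1 WT library was left out; the lone WT library is then assumed to vary like the Pim3-/- group, and fewer samples were tested. With a Pim3-/- library left out, the spread comes from the WT pair alone, so calls in those fits leave out the differences between clones. Genes with few counts in WT ESCs limit what these libraries can show.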
